A study of Drosophila melanogaster with 14 samples.

Results

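The early-mid (EM) and late-mid (ML) S-phase fractions of germline stem cell-like (GSC-like) nuclei were compared in 4 of the 14 Repli-seq libraries of the series, namely EM and ML of replicate 1 and EM and ML of replicate 2, taken by their titles. The tissue was a testis tumour of Drosophila melanogaster kept at 25 °C, made by driving the ligand Unpaired (Upd) in germ cells. All 4 libraries came from flies of one genotype, with y[1] w[1118] and P{hs70FLP}, the germline driver P{w[+mC]=GAL4::VP16-nanos.UTR} over UAS - Upd, and UAS-FRT-H3-GFP-FRT-H3-mKO over a plain chromosome. The driver also made the green histone used for sorting, so nuclei were chosen by driver activity and not by a stem cell marker, and the DNA libraries hold no expression with which to check the cell type. Per preparation, 100 to 200 pairs of testes were pooled and exposed to 100 mM bromodeoxyuridine (BrdU) for 15 minutes. A sorter split green S-phase nuclei by their DNA content into early (E), EM, ML and late (L), 4 fractions in all, and BrdU-labelled DNA was pulled down and sequenced. The age of the flies is not given in the sources used here.

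The genome is copied in a set order during S phase. Gene-rich euchromatin usually starts early, while long domains with few active genes, the heterochromatin around centromeres and the Y chromosome are copied late. In Repli-seq the fraction in which a stretch of DNA carries most BrdU gives its place in that order, and a ratio of the middle fractions separates stretches copied before and after the middle of S phase. Unpaired activates the JAK-STAT pathway, which in the normal testis maintains the stem cells at the tip.

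The deposited values were RPKM (reads per kb of window and M reads, with M for 1e6) in windows of 3 kb stepping by 1 kb, averaged here to 10 kb bins. Libraries were scaled to an equal mean, and log2(EM/ML) was taken within each replicate and set to 0 at the median bin of the autosomal arms. A negative value therefore marks DNA with more signal in ML. Of 13757 bins on the 7 sequences of the major autosomes, X, Y and chromosome 4, 13745 were tested. The totals were 81.9 M reads for EM and 49.1 M for ML in replicate 1, against 2.78 and 0.516 M in replicate 2. A median autosomal arm bin held 5933, 2708, 120 and 26 reads in these libraries, which alone gives a counting error of 0.019, 0.028, 0.13 and 0.28 on the log2 scale. Replicate 1 carries the label SE and replicate 2 the label PE, so the replicate, its read layout and its depth cannot be told apart.

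The strings of the 3 bins called higher in EM, and of 3 regions called higher in ML, are given first. A bin was called when limma, fitted to the 2 paired log ratios over all bins, gave an adjusted p under 0.05. The 3 bins called higher in EM were each filled with a tandem repeat, a unit copied head to tail. The first, chr3R:21300001-21310000, lay within the long non-coding RNA gene lncRNA:Hsromega, which is known for its tandem repeats and its response to heat. The second, chrX:16030001-16040000, lay within Muc14A, which encodes a mucin, and 97.1% of it was exon. The third, chrX:7810001-7820000, held no annotated gene. The strings below are the most frequent 30 bases around the most frequent 10-base string of each bin, on the plus strand of dm6. They were read from the RefSeq genome sequence, and capitals mark the 10-base string. The first copies of the 30 bases start at 21300032, 16030130 and 7813004.
lncRNA:Hsromega repeat: ATCCTTCGAAaaggcttatcctcttggtaa
Muc14A repeat: acaggttcgAGTGCAGAAGagcaaacagct
Unannotated X repeat: aaaatgcgaaaaattgacAAATTTTGATtt
The capital string occurred 37 times in the lncRNA:Hsromega bin, with a median distance of 278 bases between neighbours. It occurred 53 times in the Muc14A bin at a median distance of 195 bases, and 35 times in the unannotated X bin at 313 bases. A string of 30 bases repeated at least 10 times was present in 3 of the 3 bins called higher in EM, in 0 of the 82 called higher in ML and in 303 of all 13745 bins (2.20%). This definition was chosen after the bins had been seen and rests on 3 bins. Of the 5 bins with a log2(EM/ML) above 1 in both replicates, 1 held such a repeat. The 148 arm bins with such a repeat had a median log2(EM/ML) of -0.25 in replicate 1 and 0.66 in replicate 2, so repeats as a class did not lean to EM in both. For contrast, the central 30 bases of the bin with the largest ratio are given for the 3 longest regions called higher in ML. Each lies in an intron and occurs 1 time in its bin, with no part in capitals because no string was singled out. They span chr3L:10104986-10105015, chr2L:17754986-17755015 and chr3L:13714986-13715015.
dpr6 intron: catcgtttgacagcaggatggcaggacagc
CadN intron: taagaaatgtattgacatgaaagaatccta
bru3 intron: aaagcaaaagcaacatcgtgttgcatttat

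More signal in ML than in EM marked 82 of 13745 bins (0.597%), while 3 bins (0.0218%) had more in EM, and 85 in all (0.618%) passed in either direction. In the 82 bins the scaled RPKM had a median of 3.27 in EM of replicate 1, with a range from 1.51 to 4.59. In ML of replicate 1 the median was 7.26, with a range from 4.00 to 10.8. In replicate 2 the median was 1.01 in EM (range 0.410 to 1.45) and 7.67 in ML (range 3.62 to 11.8). Both EM libraries lay below both ML libraries in 82 of the 82 bins, against 16% of all bins. The log2(EM/ML) ran from -1.93 to -0.70 in replicate 1 and from -3.45 to -2.07 in replicate 2. The size thus differed between replicates. The sign was shared, but the call was made on the mean of these same ratios. Over all bins the lowest values were -2.57 in replicate 1 and -3.45 in replicate 2. A called mean this low therefore required both replicates to be negative. The shared sign and the lower EM levels are no separate support for these bins. The SE of a bin came from the trend of spread against signal over all bins, since limma's prior took the whole weight, and not from that bin's own pair of replicates. The count fell to 0 without the trend or without pairing by replicate. A fit of all 14 libraries called 194 bins as higher in ML. The same fit called 21 without replicate 2 and 2038 without replicate 1, with 1 EM and 1 ML library left and the spread taken from the CySC-like libraries. In the 82 bins the median log2(EM/ML) was -1.37 in replicate 1 and -2.77 in replicate 2. The calls thus leaned on the replicate with the shallow ML library. An unadjusted p under 0.05 was reached by 1151 bins.

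**Figure D1:**
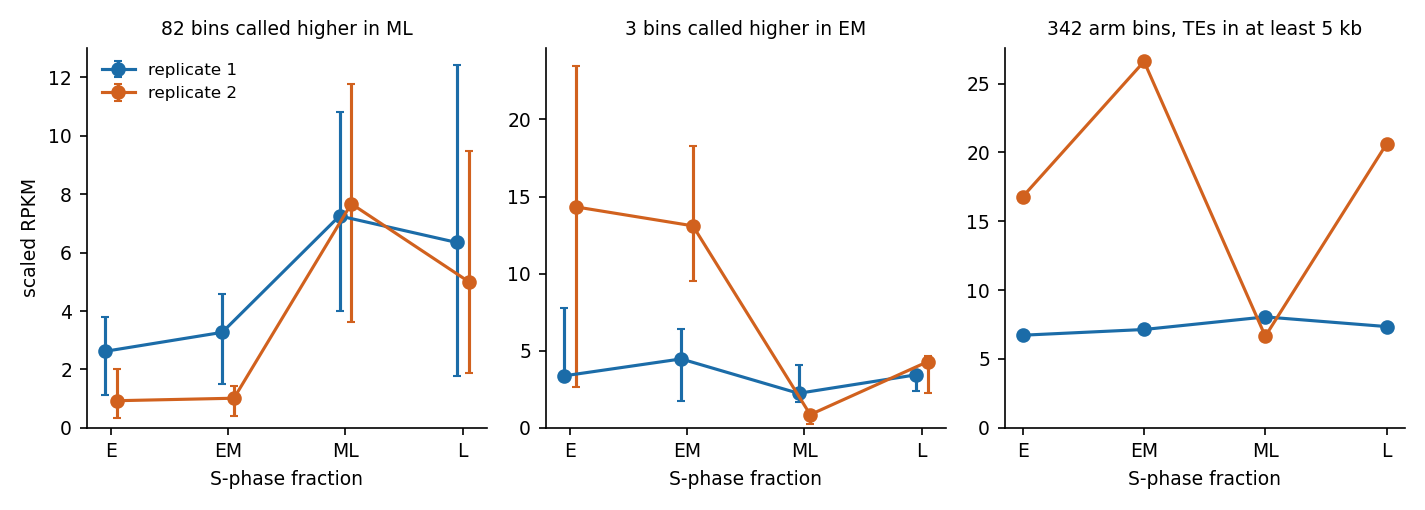
Scaled RPKM (vertical axis) in the 4 S-phase fractions of GSC-like replicates 1 (blue) and 2 (orange). Points are medians over bins and bars in the first and second panels run from the lowest to the highest bin. The 82 bins called higher in ML rise from EM to ML in both replicates. The 3 bins called higher in EM are high in EM of replicate 2, but in its E library they run from 2.67 to 23.5. The 342 arm bins rich in transposable elements (TEs) are high in E, EM and L of replicate 2.

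The E and L libraries took no part in that call. Log2(E/L), the ratio of the ends of S phase, was below 0 in both replicates in 82 of the 82 bins, against 42.2% of all bins. With the same fit on E and L, 80 of the 82 passed as higher in L (16.8% of all bins). CySC-like nuclei came from tumours of w[1118] flies in which traffic Jam - GAL4, a driver of the somatic cyst lineage, acted on the same UAS transgenes. In these, log2(E/L) was below 0 in both replicates in 70 of the 82 bins, against 42.1% of all bins. In replicate 1 the highest of the 4 fractions was ML in 52 of the 82 bins and L in 30. In replicate 2 it was ML in 75 and L in 7. ML and L thus shared the peaks, and E or EM was the highest fraction in 0 of the 82 bins.

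Most of the 82 bins lay on the arms. The arms held 71 of 11337 bins (0.626%), with 22 on 2L, 12 on 2R, 18 on 3L, 13 on 3R and 6 on X. The pericentromeres held 11 of 1906 (0.577%), in 2R and 3R, and chromosomes 4 and Y held 0. The 82 bins formed 54 runs after gaps of 1 bin were bridged, and 37 runs were single bins. No coding gene started in 63 of the 82 (76.8%), compared with 53.1% of all bins. An annotated transposable element was present in 6 of the 82 (7.32%), compared with 22.9% of all bins. For arm bins alone, 73.2% of those called held no coding start (45.7% of all arm bins) and 8.45% held an element (18.6%). All 82 lay below -2 in replicate 2. Of the 743 arm bins below -2 there, 1.08% held at least 1 kb of elements, against 9.13% of all arm bins. Whether the low share of elements goes beyond that replicate was not tested. The median GC content was 41.7%, close to the 42% of all bins. Of 13968 coding genes with a value, 32 (0.229%) started in a bin called higher in ML and 0 in a bin called higher in EM.

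The longest region called higher in ML spanned 60 kb at chr3L:10100001-10160000, over the 3′ parts of dpr6 and dpr10, which encode immunoglobulin-domain proteins of the neuronal surface. Exons made up 11.5% of it and genes 86.5%. Its mean scaled RPKM was 3.37 in EM and 7.44 in ML of replicate 1, and 0.974 in EM and 8.05 in ML of replicate 2. The mean log2(EM/ML) was -2.11 ± 1.14 (SD, n = 2), and limma's adjusted p ran from 0.0306 to 0.0421 over its 6 bins, all of which were called. The same region had a log2(E/L) of -1.57 and -3.05. ML held more signal than EM in both replicates, as the call required, but the change was larger in the shallow one.

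The next region spanned 50 kb at chr2L:17750001-17800000, over the 5′ end of CadN (N-cadherin, an adhesion molecule of neurons) and the 3′ end of its neighbour CadN2. Its scaled RPKM was 3.24 in EM and 6.62 in ML of replicate 1, and 0.833 and 5.35 in replicate 2. The mean log2(EM/ML) was -1.85 ± 0.92 (SD, n = 2), and 3 of its 5 bins were called. A further region of 40 kb at chr2L:17900001-17940000 lay near CadN2 with 7.79% of its length in genes, and there the mean was -1.56 ± 0.36 (SD, n = 2). In that region, L was the highest fraction in both replicates, with 7.16 and 6.23 against 7.12 and 5.57 in ML.

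A region of 40 kb at chr3L:13680001-13720000 lay in an intron of bru3, which encodes an RNA-binding protein of the Bruno family, and held 0% exon. Its scaled RPKM was 3.47 in EM and 7.10 in ML of replicate 1, and 1.06 and 7.66 in replicate 2, for a mean log2(EM/ML) of -1.97 ± 1.08 (SD, n = 2). A region of the same length at chr3R:26330001-26370000 covered most of osy, which encodes a transporter of the ABC family, and all of Nil. Its scaled RPKM was 3.46 and 7.29 in replicate 1 and 1.09 and 7.44 in replicate 2, with a mean of -1.95 ± 1.01 (SD, n = 2). In each of these regions 3 of 4 bins were called. The EM libraries lay below the ML libraries, but the regions were chosen by that call, so this is no separate support.

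**Figure D2:**
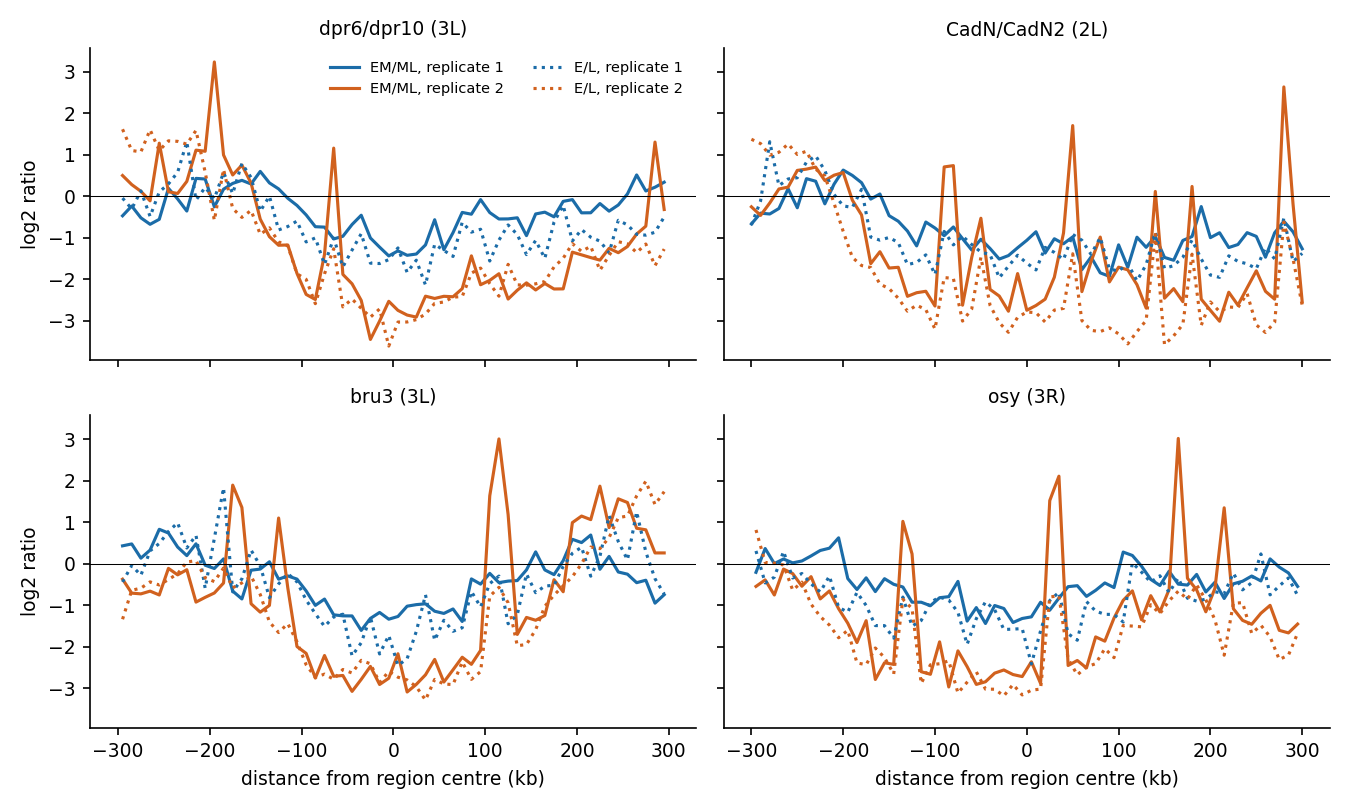
Log2 ratio (vertical axis) in 10 kb bins against distance from the centre of 4 regions called higher in ML (horizontal axis, kb, up to 300 to each side), named by their genes and chromosome arms. Solid lines are EM/ML and dotted lines E/L, with replicate 1 in blue and replicate 2 in orange. The regions lie within wider valleys of both ratios, whose lowest bins are in part outside them, and single bins of replicate 2 rise sharply in EM/ML, up to 3.23 near dpr6 and 3.02 near osy.

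Higher signal in EM was rare, and both EM libraries lay above both ML libraries in 2 of the 3 called bins, against 17.1% of all bins. The bins were called on these same values, so this is no separate support for them, and it rests on 3 bins. The unannotated X repeat had a scaled RPKM of 4.47 in EM and 1.67 in ML of replicate 1, and 13.1 and 0.856 in replicate 2. Its log2(EM/ML) was 2.49 with an SE of 0.51 (limma, adjusted p = 0.0155), and EM was the highest fraction in both replicates. The lncRNA:Hsromega bin had 6.41 in EM and 4.07 in ML of replicate 1, and 18.3 and 1.12 in replicate 2, for a log2(EM/ML) of 2.19 with an SE of 0.59 (limma, adjusted p = 0.043). The Muc14A bin had 1.73 in EM and 2.24 in ML of replicate 1, and 9.52 and 0.263 in replicate 2. There the replicates had opposite signs, -0.54 and 4.73, and the call (limma, adjusted p = 0.0491) rested on replicate 2. The highest fraction of the Muc14A bin was L in replicate 1 (3.55) and E in replicate 2 (23.5). In the lncRNA:Hsromega bin it was E in replicate 1 (7.78) and EM in replicate 2. With GC correction the count of bins higher in EM was 1. How the authors treated reads that match several places is not given in the sources used here, and its part in these values was not tested.

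By size alone, log2(EM/ML) was above 1 in both replicates in 5 bins (0.0364%) and below -1 in 462 (3.36%). Besides the unannotated X repeat, the bins above 1 lay at chrX:2410001-2420000, inside Lar and over scw (chr2L:19690001-19700000), at the 5′ end of SIFaR (chr3R:21290001-21300000) and inside DIP-alpha (chrX:3520001-3530000). Lar encodes a receptor tyrosine phosphatase, scw a ligand of the BMP family, SIFaR a neuropeptide receptor and DIP-alpha a surface protein that binds dpr6 and dpr10. The bin at chrX:2410001-2420000 had a scaled RPKM of 5.56 in EM and 2.33 in ML of replicate 1, and 3.86 and 0.659 in replicate 2, for 1.04 and 2.39 (limma, adjusted p = 0.0833). The Lar bin had a scaled RPKM of 8.33 in EM and 3.13 in ML of replicate 1, and 6.64 and 2.63 in replicate 2. Its log2(EM/ML) of 1.25 ± 0.08 (SD, n = 2) was nearly equal in the replicates, yet it did not pass the fit (limma, adjusted p = 0.447). The SIFaR bin also held part of lncRNA:Hsromega and lay next to the bin called there. Its levels were 8.66 and 3.74 in replicate 1 and 8.51 and 3.03 in replicate 2 (limma, adjusted p = 0.579). The DIP-alpha bin had 5.27 and 2.17 in replicate 1 and 4.09 and 1.65 in replicate 2 (limma, adjusted p = 0.402). In these 4 bins EM lay above ML within each replicate, as the rule that picked them required. The change was of like size in the replicates for Lar, SIFaR and DIP-alpha, and larger in replicate 2 for the bin at chrX:2410001-2420000. EM was the highest of the 4 fractions in both replicates for DIP-alpha and the bin at chrX:2410001-2420000. For SIFaR the highest was E in both (11.5 and 9.17). For Lar it was E in replicate 1 (9.67) and EM in replicate 2.

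Bins below -1 in both replicates made up 15.8% of the 3R pericentromere, 11.7% of that of 2R, 8.15% of that of 3L and 5.30% of that of X, but 0.658% of that of 2L. On the autosomal arms the share was 2.4%. Of the 462 bins, 375 (81.2%) held no coding start, compared with 53.1% of all bins. Log2(E/L) was below 0 in both replicates in 458, against 42.2% of all bins. Pericentromeres held 199 of the 462, and 88.5% of all pericentromere bins held no coding start. For the 243 on the arms the share was 68.3%, compared with 45.7% of all arm bins. Bins below -1 in both replicates numbered 0 of 135 on chromosome 4 and 20 of 367 on Y.

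Taken over the whole set of bins, called ones included, the replicates shared little of the EM/ML order. Across all bins Pearson's r between the log2(EM/ML) of the replicates was 0.169 and Spearman's rho 0.105, given as a description because neighbouring bins share reads and domains. The sign was opposite in 49.3% of bins. The r was 0.243 on the autosomal arms, 0.0692 on the X arm and 0.317 in the pericentromeres. Log2(E/L) of the same nuclei had an r of 0.692 between replicates. The SD of log2(EM/ML) over bins was 0.54 in replicate 1 and 1.16 in replicate 2. Across autosomal arm bins the EM level of replicate 1 had an r of 0.492 with EM of replicate 2 and 0.50 with ML of replicate 2, so the level alone did not set these fractions apart. The ML level of replicate 1 had an r of 0.571 with ML and 0.142 with EM of replicate 2.

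**Figure D3:**
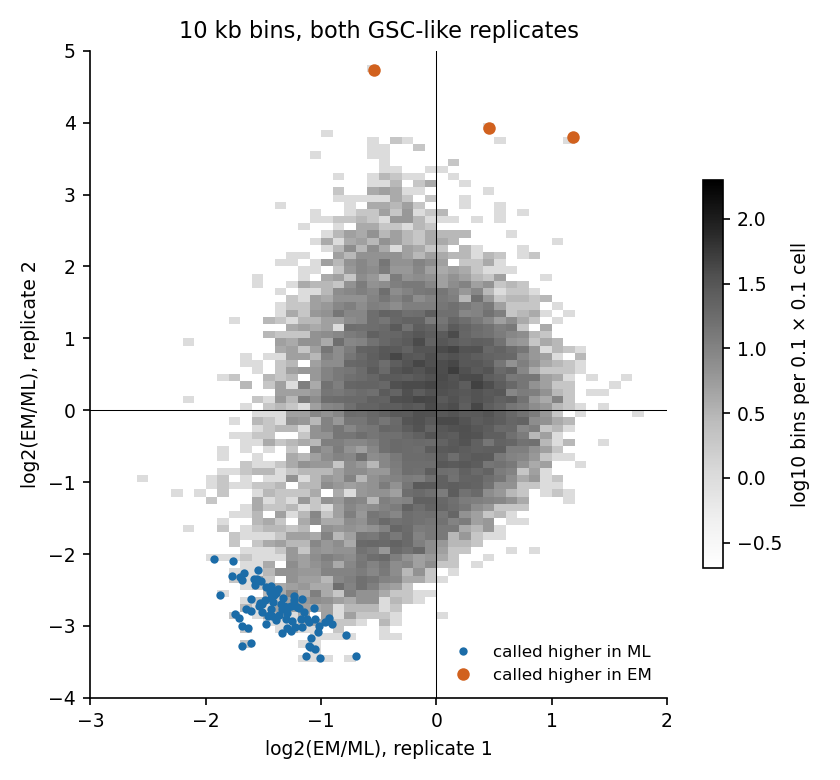
Log2(EM/ML) of replicate 2 (vertical axis) against replicate 1 (horizontal axis) for 13745 bins of 10 kb, as grey cells of 0.1 by 0.1 shaded by the log10 number of bins. Blue points are the 82 bins called higher in ML and orange points the 3 called higher in EM. The grey cloud fills all 4 quadrants, and the blue points sit in its lower left corner.

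On the arms, most of the highest log2(EM/ML) values of replicate 2 lay at transposable elements, mobile sequences present in many copies. Of the 372 arm bins with a log2(EM/ML) above 2 in replicate 2, 255 (68.5%) held at least 1 kb of annotated transposable element, against 9.13% of all arm bins. Of the 99 arm bins above 1 in replicate 1, 0 did. In the 342 arm bins with at least 5 kb of such sequence, the median scaled RPKM of replicate 1 was 6.73 for E, 7.14 for EM, 8.06 for ML and 7.35 for L. In replicate 2 it was 16.8 for E, 26.6 for EM, 6.65 for ML and 20.6 for L. In the 9229 arm bins with no annotated element, the median of replicate 1 was 6.39 for E, 6.34 for EM, 5.51 for ML and 5.72 for L. In replicate 2 it was 3.86 for E, slightly lower for EM, 4.22 for ML and 2.41 for L. Against these levels, the 342 bins were raised most in ML and least in E in replicate 1. In replicate 2 the 342 bins were raised in all 4 fractions, least in the shallow ML library. Their median log2(EM/ML) was -0.43 and 1.90, with opposite signs in 285 of the 342 bins (83.3%). In the 9229 arm bins with no annotated element the medians were -0.01 and -0.06, and r between replicates was 0.280, against 0.185 over all arm bins. The limits of 1 and 5 kb were chosen after the peaks had been seen.

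The replicates also differed in arm bins of low GC content. Arm bins with 34 to 38% GC (n = 751) had a median log2(EM/ML) of -0.35 in replicate 1 and 0.77 in replicate 2. In bins with 42 to 46% GC (n = 4595) the medians were 0.02 and -0.04. Transposable elements and GC content moved together, with a median GC of 38.1% in the bins with at least 5 kb of elements and 42.7% in those with none, and their parts were not tested separately.

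The EM/ML ratio followed the E/L ratio of its own replicate, although the pairs share no library. Across all bins r was 0.535 in replicate 1 and 0.553 in replicate 2, again as a description over bins that share the preparation. With autosomal arm bins in 10 equal groups by log2(E/L), log2(EM/ML) in replicate 1 went from -0.62 ± 0.46 (SD over 914 bins) in the latest group to 0.20 ± 0.41 in the earliest. In replicate 2 it went from -2.11 ± 0.57 to 0.55 ± 0.61. The slope lay on the late side. In replicate 1 the 3 earliest groups stood at 0.13, 0.15 and 0.20, and in replicate 2 at 0.58, 0.59 and 0.55. No bin of 13745 passed the test of log2(EM/ML) against log2(E/L) (0%, limma, adjusted p under 0.05), and 1046 reached an unadjusted p under 0.05.

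**Figure D4:**
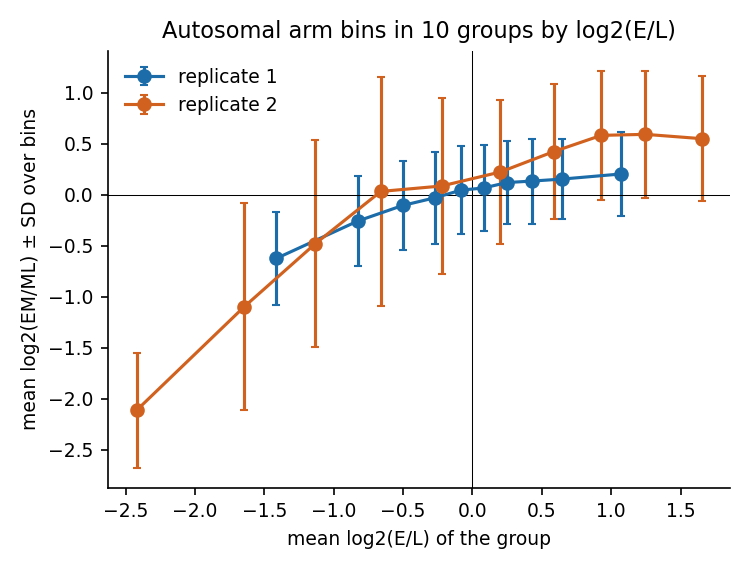
Mean log2(EM/ML) with its SD over bins (vertical axis) against mean log2(E/L) (horizontal axis) for autosomal arm bins in 10 groups by log2(E/L), with replicate 1 in blue and replicate 2 in orange. Both lines rise steeply among the latest groups and flatten among the earliest.

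The ratio was smooth along the arms. Its correlation between autosomal arm bins 10 kb apart was 0.691 in replicate 1 and 0.764 in replicate 2. At 50 kb it was 0.366 and 0.519, and at 100 kb 0.0408 and 0.315, so the pattern of replicate 1 had the shorter range.

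The X arm, chromosomes 4 and Y and the pericentromeres of 2L and 2R had mean log2(EM/ML) of opposite sign in the 2 replicates. The mean log2(EM/ML) of chromosome 4, a small chromosome rich in repeats whose genes are active, was -0.47 in replicate 1 and 1.13 in replicate 2, with opposite signs in 83.7% of its 135 bins. The Y chromosome, which is mostly heterochromatin, stood at -0.70 and 0.54. The X arm, present in a single copy in males, stood at -0.20 and 0.30. The pericentromeres of 3L (-0.54 and -0.07), 3R (-0.73 and -0.13) and X (-0.51 and -0.06) were below 0 in both replicates, and those of 2L (-0.18 and 0.47) and 2R (-0.54 and 0.07) were not. All pericentromeres minus arms gave -0.49 and 0.04, while the same difference of log2(E/L) was -0.64 and -1.24. For these 4 differences (pericentromeres against arms, and X arm, chromosome 4 and Y against autosomal arms) the exact two-sided sign-flip permutation test gave p = 1, and with 2 replicates it cannot go below 0.5. The autosomal arms lay closer together, with 2L at -0.09 and -0.23, 2R at 0.05 and 0.06, 3L at -0.05 and -0.11, and 3R at -0.02 and -0.17.

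**Figure D5:**
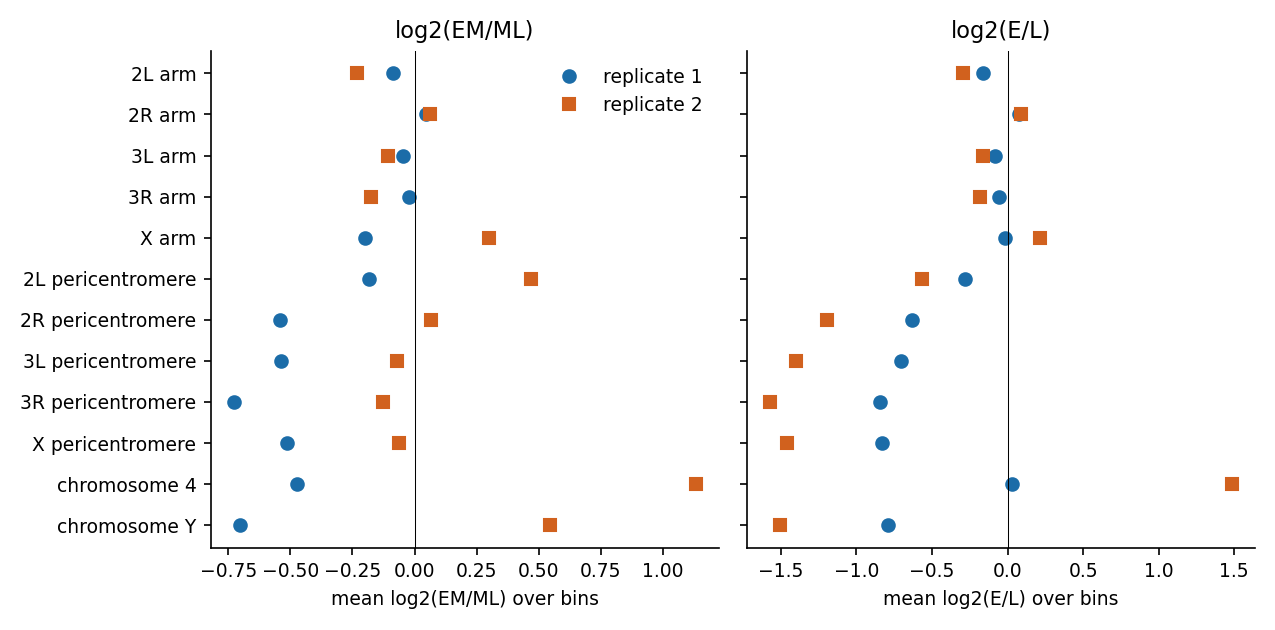
Mean over 10 kb bins of log2(EM/ML) (left) and log2(E/L) (right, horizontal axes) for chromosome arms, pericentromeres and chromosomes 4 and Y, with replicate 1 as blue circles and replicate 2 as orange squares. In EM/ML the replicates lie on opposite sides of 0 for the X arm, the pericentromeres of 2L and 2R, and chromosomes 4 and Y, and in E/L both lie below 0 for the pericentromeres and Y.

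Among 14 gene lists, genes were valued by the bin of their start. Of the listed genes, 2 of 119 chemoreceptor genes started in a called bin, against 0.229% of all coding genes, and 0 of every other list. Both, the gustatory receptor genes Gr36a and Gr36b, share one bin of 2L. It had a scaled RPKM of 2.95 in EM and 7.56 in ML of replicate 1, and 0.797 and 5.73 in replicate 2, for a log2(EM/ML) of -2.10 with an SE of 0.52 (limma, adjusted p = 0.0349). At the other end of that list Gr33a stood at 0.66 and 1.06 in the replicates. The median log2(EM/ML) over all coding genes was -0.01 in replicate 1 and 0.20 in replicate 2.

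The Hox genes, the regulators of segment identity, had medians of -0.13 and -1.45, with 5 of 8 below 0 in both replicates (20.1% of all coding genes and 27.8% of all bins) and 0 called. The abd-A bin had a scaled RPKM of 5.86 in EM and 10.9 in ML of replicate 1, and 1.68 and 8.04 in replicate 2, for -1.08 and -2.19. Its neighbour Abd-B had 8.77 and 5.38 in replicate 1 and 6.41 and 3.62 in replicate 2, for 0.51 and 0.81. These adjacent genes of the bithorax complex thus lay on opposite sides of 0 in both replicates. Ubx, the other gene of that complex, had -0.23 and -1.72. In the Antennapedia complex, Antp had 0.40 and 0.86. Scr had 0.51 and -1.63, and lab, pb and Dfd were below 0 in both replicates, from -0.47 to -0.04 in replicate 1 and from -1.76 to -1.04 in replicate 2.

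The 10 listed genes of the Y chromosome, some of which are needed for sperm formation, had medians of -1.11 and -0.60. Below 0 in both replicates were 7 of the 10 (20.1% of all coding genes and 27.8% of all bins). Above 0 in both were 0 (29.4% of all coding genes and 22.9% of all bins). WDY had a scaled RPKM of 2.88 in EM and 5.28 in ML of replicate 1, and 2.97 and 6.26 in replicate 2, and its log2(EM/ML) was -1.04 and -1.04. ARY stood at -1.09 and -1.41, PRY at -1.81 and -2.02, and kl-5 at -1.71 and -1.45. ORY stood at -1.75 and -0.16, kl-3 at -1.29 and -0.13 and kl-2 at -0.43 and -1.57, the last with 0 signal in EM of replicate 2. CCY, Ppr-Y and FDY were below 0 in replicate 1 and above 0 in replicate 2. Each of the 10 had a log2(E/L) below 0 in both replicates. The bins of kl-5 and ORY reached 300.4 and 261 in an ML library, where the median over all bins was 4.74 and 5.77.

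The 9 chromosome 4 genes went with their chromosome, with medians of -0.62 and 0.92 and opposite signs in 9 of 9 (50.5% of all coding genes). The ci bin, for the transcription factor of the Hedgehog pathway, had 2.16 in EM and 4.50 in ML of replicate 1, and 1.93 and 0.659 in replicate 2. In ey, toy, pan, sv, zfh2, Crk, bt and Ephrin the values ran from -0.87 to -0.08 in replicate 1 and from 0.12 to 1.43 over the 9 genes in replicate 2. The 111 genes of the histone cluster, a tandem array on 2L that supplies the histones of S phase, lay in 14 bins with medians of -0.65 and 2.19, again with opposite signs in 111 of 111. Their median scaled RPKM was 15.5 in EM and 21.6 in ML of replicate 1, against 46.2 and 9.88 in replicate 2.

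Genes of the cyst lineage, the somatic partner of the germline, had medians of 0.27 and 0.58, with 5 of 8 above 0 in both replicates (29.4% of all coding genes and 22.9% of all bins). The highest outside 2R was eya, a cofactor of cyst cell fate, with 9.66 in EM and 5.47 in ML of replicate 1 and 6.22 and 2.57 in replicate 2. The lowest was Socs36E, an inhibitor of JAK-STAT signalling, at 0.20 and -1.04. Germline genes had medians of -0.23 and 0.09, from piwi, the small-RNA-guided silencing protein, at -0.48 and -0.45 to tut, a partner of bam, at 0.56 and 1.16. In the JAK-STAT list the ligand genes upd1, upd2 and upd3 were below 0 in both replicates, with upd2 the lowest at -0.32 and -2.75 (limma, adjusted p = 0.126). The highest there was Ptp61F, a phosphatase acting on the pathway, at 0.03 and 1.01. Spermatocyte arrest genes ran from can, a testis form of a general transcription factor subunit, at -0.52 and -2.27 to the meiotic arrest gene aly at 0.41 and 0.75.

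Among 18 genes of the replication machinery the medians were -0.16 and 0.15, from the helicase subunit Mcm3 at -0.94 and -1.03 to CDC45L at -0.60 and 2.22. The 85 ribosomal protein genes had medians of -0.14 and 0.22, from RpL10Aa at -0.37 and -1.69 to RpS30 at -0.02 and 2.02. The 70 cuticle protein genes had medians of 0.26 and 0.32. Above 0 in both replicates were 31 (44.3%, against 29.4% of all coding genes), and 8 were below in both (11.4%, against 20.1%). Outside 2R they ran from Cpr65Ec at -0.10 and -1.71 to Cpr78Cc at -0.08 and 2.96. Genes within heterochromatin had medians of -0.15 and -0.09, from Pzl at -0.75 and -2.59 to vtd, a cohesin subunit, at 0.00 and 2.75. The noncoding RNA lncRNA:roX1, which helps target dosage compensation to X, stood at 0.47 and 1.30, and lncRNA:roX2 at -0.62 and 0.04.

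The only other EM and ML libraries were those of CySC-like replicate 2. The library labelled EM there gave a log2(EM/ML) with an r of -0.682 against log2(E/L) of its own replicate, so the order of its middle fractions ran against that of its ends, whereas both GSC-like replicates had a positive r. Pericentromeres minus arms was 1.23 there. In 63 of the 82 bins called higher in GSC-like ML the CySC-like value was above 0, against 60% of all bins. This comparison has 1 CySC-like replicate and was not tested.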

How the data were processed

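Members and gene lists were chosen with earlier results of these data known. The deposited table holds RPKM values made by the authors in 3 kb windows stepping by 1 kb. Reads were aligned with Bowtie2 2.4.5 to dm6, per the submitters' processing notes. Duplicate removal and multi-mapping settings are not given in the sources used here. The unit was worked out from the values, since 100% of full windows were whole multiples of 1 read (tolerance 0.01 reads) in each library. Windows were averaged to 10 kb bins, libraries scaled to an equal mean, 0.1 RPKM added and log2 taken. Ratios are therefore on the log2(value + pseudocount) scale, which understates changes of low bins. Log2(EM/ML) was formed within replicates and centred on the median autosomal arm bin. Bins at 0 in 2 or more of the 4 libraries were left out (12 bins). The ratios were tested against 0 with limma 3.58.1 (lmFit, eBayes with trend) in R 4.3.3, with Benjamini-Hochberg adjustment at 0.05. On simulated data with 13745 bins, the fit of log2(EM/ML) recovered 33% of changes of 2 and 98% of changes of 4, with 9 false calls. There, bins were independent and both replicates had the same spread, taken from the fitted trend. The real replicates had SDs of 0.54 and 1.16 and correlated neighbouring bins, so these figures do not carry over to the data.

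Pairing comes from the design text, which says that the fractions of a biological replicate were sorted from the same preparation. Deviations of EM and ML from their group means had a correlation of -0.13. Nothing says whether the replicates came from separate crosses, so p-values measure the spread between these preparations. Precision is that of read counting and 2 replicates, and amplified reads are not independent molecules. Genes and transposable elements are from Ensembl release 115, and lengths of the 7 chromosomes equalled those of the Release 6 reference. Pericentromeres were 2L from 22 Mb, 2R to 6, 3L from 23, 3R to 5 and X from 22. Regions named are the 5 longest merged runs of called bins in each direction outside 2R. Where fewer than 5 were called, bins past 1 in both replicates were used. From each list the highest and the lowest gene outside 2R are named, with Hox, Y, chromosome 4, roX and histone genes whatever their values. Other genes in the text were chosen after their values were seen. Alternatives covered pairing, libraries fitted, centring, spread, trend, pseudocount, filter, bin size, weights, GC content, boundaries and leaving out replicates. Added after the data were seen were a fit without ML of replicate 2, a same-sign count and a crossed block. Python 3.11.15 with numpy 2.4.6, pandas 2.3.3 and matplotlib 3.10.9 was used for summaries and plots.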

Additional observations from a re-analysis of the deposited data

Results flagged for a closer look

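In 7 regions the mean log2(EM/ML) of CySC-like replicate 2 had the opposite sign to both GSC-like replicates, and the difference was not tested. The CySC-like value was 0.14 on the 2L arm, -0.054 on the 2R arm, 0.17 on the 3L arm and 0.15 on the 3R arm. It was 1.61 in the 3L pericentromere, 1.54 in the 3R pericentromere and 1.08 in the X pericentromere, where the GSC-like replicates stood at -0.54 and -0.07, -0.73 and -0.13, and -0.51 and -0.06. The comparison rests on the libraries labelled EM and ML in 1 preparation of CySC-like nuclei, whose EM/ML order opposed its own E/L order.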

How the results depend on the processing

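Counts of called bins depended on the setting. Main counts were 82 higher in ML and 3 higher in EM. With no replicate block they were 0 and 0 (839 bins at an unadjusted p under 0.05). They were also 0 and 0 with all 8 GSC-like libraries, with 50 kb bins and with no variance trend (1348 unadjusted in the last). With a crossed replicate block, added after a correlation of -0.13 between paired deviations had been seen, they were 0 and 0. With all 14 libraries they were 194 and 1, without centring 87 and 10, centred on all bins 179 and 10, and with each replicate divided by its SD 341 and 4. They were 4 and 1 without a filter, 146 and 2 with the stricter filter, 37 and 0 with 20 kb bins, 218 and 72 with voom weights, and 79 and 1 with GC correction. Leaving out a replicate in the fit of all 14 libraries, with the spread taken from the CySC-like libraries, gave 21 to 2038 and 0 to 1399, against 194 and 1 with both replicates. The GSC-like fit gave 2 and 0 without ML of replicate 2, against 0 and 0 with all 8 libraries. Of the main 82, voom called 64, the stricter filter 81, all 14 libraries 78, GC correction 74 and the fit without replicate 2 called 0.

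The test against log2(E/L) gave 0 bins in the main fit, 3 without centring, 7 with 50 kb bins, 44 with a pseudocount of 1, and 2 to 1375 without a replicate. The 2R arm mean moved from 0.05 to 0.14 without centring, 0.043 with a pseudocount of 1, 0.014 with 50 kb bins, 0.11 as a median and 0.037 with moved boundaries. The 3L arm mean moved from -0.08 to 0.013 without centring and -0.0035 as a median. Without centring the list medians were 0.14 for spermatocyte arrest, -0.035 for heterochromatic and 0.38 for cuticle proteins. With 50 kb bins they were 0.20 for cyst lineage, 0.015 for spermatocyte arrest, 0.10 for heterochromatic and 0.17 for cuticle proteins, and with a pseudocount of 1 cuticle proteins were at 0.25. With both replicates kept, the other 117 of 124 region values and 34 of 42 list medians moved by less than the spread between replicates. That spread varied widely, with an SD of 1.14 for chromosome 4 and 0.01 for the 2R arm. Values whose replicates disagreed thus had more room before they counted as moved. With 1 replicate left, 7 of 14 region values and 7 of 14 list medians turned their sign, among them chromosome 4 from 0.33 to -0.47, Y from -0.08 to 0.54 and the histone cluster from 0.77 to -0.65. Of 95 values of the named ML regions 41 lost the call and 0 changed sign.

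The 0.516 M reads of ML in replicate 2, 26 in a median arm bin, limit what a single bin can show.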
